A study of Mus musculus with 40 samples.

Results

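Gpd2, G0s2, Krt23, Car1, Car3 and Aldh1a1 are 6 mouse liver genes that were chosen on measured values of these same arrays, for their lower level in ovariectomized females carrying estradiol pellets. They are 6 of the 10842 genes named on the array, and each was read by a single probe among 23574. The estradiol values below are therefore a description, and tests of the 6 genes are given for comparisons between groups without estradiol. The spread used in those tests was estimated over all 40 livers, the estradiol livers among them. The label under which the genes were chosen, lowered by estradiol, describes all 6 in ovariectomized females by that choice. In castrated males 5 of the 6 had lower means with estradiol and Car1 did not. There the estradiol and placebo groups were separate for 1 gene, Gpd2.

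Liver RNA of 40 C57BL/6J mice, an inbred strain, was measured in 8 groups of 5 animals. Each group is given here with its sex, surgery and pellet. There were ovariectomized females with a 0.5 mg estradiol pellet, castrated males with the same pellet, ovariectomized females and castrated males with a 5 mg pellet of dihydrotestosterone (DHT, an androgen that is not converted to estrogen), ovariectomized females and castrated males with a placebo pellet, and intact females and intact males, for which the labels do not say whether a pellet was placed. Gonadectomy took place at 8 weeks, pellets built for release over 21 days were placed at 12 weeks, and all mice were killed at 14 weeks after a fast of 12 h on a chow diet with 4% fat. The stated plasma yield was 300 pg/ml for estradiol and 1 to 2 ng/ml for DHT. Each value is the log2 ratio of 1 liver to a pool made from equal portions of RNA of the samples, so 0 is the level of the pool, 1 is a doubling and levels of different genes cannot be set against each other. The labels number the animals and do not describe cages or litters, and the mice are taken here as separate animals.

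The 6 genes have different roles. Gpd2 is the mitochondrial glycerol-3-phosphate dehydrogenase, which passes electrons from cytosolic NADH to the respiratory chain in the glycerol phosphate shuttle. G0s2 is a small protein that binds and inhibits adipose triglyceride lipase, the enzyme that starts the breakdown of stored triglyceride. Krt23 is a type I keratin, a building block of intermediate filaments in epithelial cells. Car1 and Car3 are cytosolic carbonic anhydrases, which interconvert carbon dioxide and bicarbonate. Car1 is abundant in red blood cells and Car3 in muscle, fat and liver, where Car3 is known as a male-biased protein in rats. Aldh1a1 oxidizes retinaldehyde to retinoic acid. Estradiol acts in liver mainly through the receptor Esr1, which binds DNA at paired copies of a short motif whose core reads GGTCA. The same core is shared by many other nuclear receptors.

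The promoter windows are shown because the genes were chosen for a response to an Esr1 ligand and the core of that receptor's motif can be looked for directly. Promoters of 4 of the 6 genes were found in the RefSeq promoter table of build GRCm38.p6, with 6 promoters in all, and Car1 and Car3 were not matched. The core GGTCA, on either strand, lay in the 250 bases before the start in 3 of those 6 promoters, those of G0s2, Krt23 and Aldh1a1, and in 35.2% of all 32851 promoters in the table. Counting back from the transcription start, the first base of the match was at -127 in G0s2, -114 in Krt23 and -49 in Aldh1a1. In the following windows, read 5′ to 3′ on the strand of the gene, capitals mark the core, as GGTCA or as its reverse complement TGACC. The G0s2 window is chr1:193273261-193273365 on the minus strand, the Krt23 window is chr11:99493180-99493284 on the minus strand, and the Aldh1a1 window is chr19:20601869-20601967 on the plus strand.
G0s2: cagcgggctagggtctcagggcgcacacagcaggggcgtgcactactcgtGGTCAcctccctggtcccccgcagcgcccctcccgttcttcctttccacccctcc
Krt23: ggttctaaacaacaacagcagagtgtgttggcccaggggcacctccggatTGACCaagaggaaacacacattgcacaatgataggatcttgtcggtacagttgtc
Aldh1a1: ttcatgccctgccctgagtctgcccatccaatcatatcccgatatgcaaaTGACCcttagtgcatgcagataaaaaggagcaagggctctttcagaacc
The full palindrome GGTCANNNTGACC was in 0 of the 6 promoters and in 0.0639% of all, the longer half-site AGGTCA, which overlaps the core, in 0 of the 6 and 14.0% of all, and the direct repeat AGGTCANAGGTCA in 0 of the 6 and 0.0335% of all. These letters describe the windows only. Car1 and Car3 are near neighbours on chromosome 3, in the RefSeq gene order Car13, Car1, Car3, Car2 with a lncRNA and pseudogenes between them.

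The sexes given in the labels fitted the arrays, since each of the 20 females was below each of the 20 males for Eif2s3y and for Kdm5d, which lie on the Y chromosome. Markers of hepatocytes (9 of 12 measured) had group means between -0.11 and 0.09. Livers of the estradiol groups were not alike in Fabp4 and Cidea, and no clustering was run. The fatty acid binding protein Fabp4, an adipocyte marker, lay between -1.20 and -0.49 in the 30 livers without estradiol. It was at 2.49, 2.36 and 1.94 in ovariectomized estradiol animals 35, 36 and 37 and at 1.72 and 0.60 in castrated estradiol animals 43 and 44. It was at -0.76 and -0.95 in ovariectomized estradiol animals 33 and 34, and at -0.99, -0.87 and -0.31 in castrated estradiol animals 41, 45 and 46. So 5 of the 10 estradiol livers stood above the others and 4 lay inside the range of livers without estradiol. Cidea, a lipid droplet protein, was between 1.65 and 2.59 in the same 5 livers with high Fabp4 and between -2.12 and -0.50 in the other 5. The estradiol differences from placebo below are given with and without animals 33 and 34, or 41 and 45. Of these animals, 33 and 34 were each the highest of their group for 3 of the 6 genes and animal 41 was the highest for 5, while animal 45 was the highest for 0 and the lowest for 1, Gpd2.

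Over the 8 adipocyte markers measured of 11, the mean level was 0.52, 0.52 and 0.55 in ovariectomized estradiol animals 35, 36 and 37 and -0.41 and -0.29 in animals 33 and 34, against -0.45 to -0.22 in ovariectomized placebo animals. In castrated estradiol animals it was 0.54 and 0.55 in animals 43 and 44 and -0.50, -0.38 and -0.21 in animals 41, 45 and 46, against -0.27 to -0.18 in castrated placebo animals. These 8 markers include Fabp4 and Cidea. Across the 8 the median log2 difference with estradiol was 0.01 in females and -0.04 in males. Over all probes it was -0.009 and -0.023. In females 1 of the 8 passed and in males 0, so the high means do not show a rise across the list. Markers of Kupffer cells and macrophages, all 11 measured, moved with the adipocyte mean. Their mean was 1.08, 1.72 and 0.49 in ovariectomized estradiol animals 35, 36 and 37, against -0.45 to 0.05 in ovariectomized placebo animals, and -0.21 and -0.30 in animals 33 and 34. In castrated estradiol animals it ran from -0.47 to 0.75, against -0.54 to -0.03 in castrated placebo animals. None of these 11 macrophage markers passed the test in either sex, and the nearest in females was Cd14, with a log2 difference of 0.95 ± 0.24 (SE) and a limma adjusted p of 0.0576. A ratio to a pool shows no true zero, so it cannot be said which of these markers are absent. In bulk liver, fewer cells of a type and less RNA per cell cannot be told apart. The part of these markers in the values of the 6 genes was not tested.

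**Figure D1:**
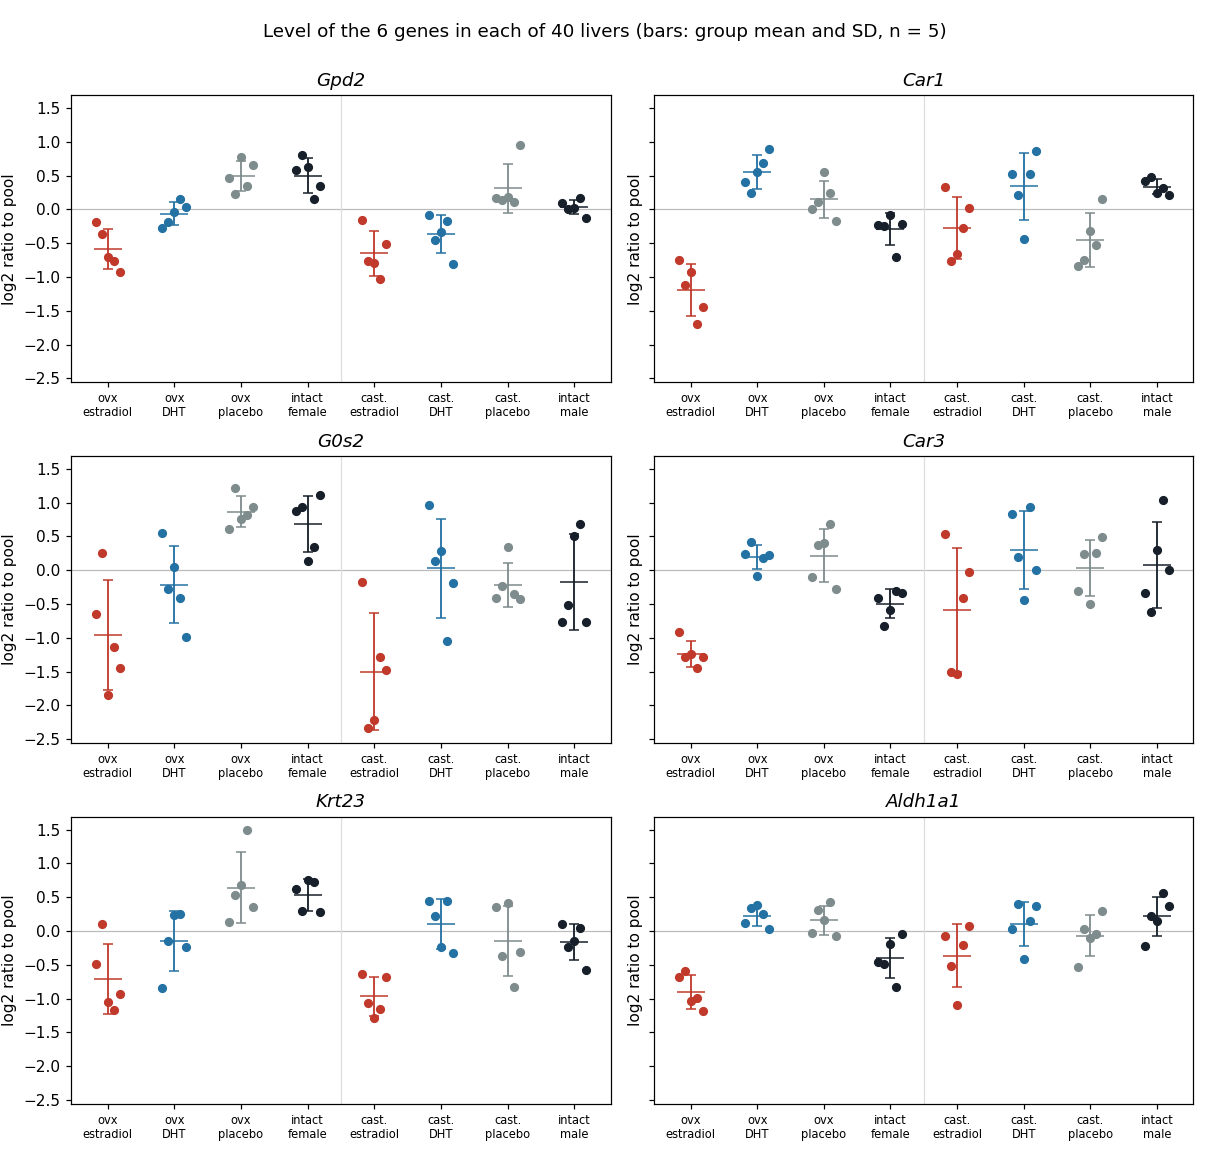
Level of each of the 6 genes in the 40 livers, as the log2 ratio to the pool on the y axis, by group on the x axis; points are animals, bars the group mean and SD (n = 5). In ovariectomized females every estradiol point lies below every placebo point for all 6 genes, while in castrated males only Gpd2 separates the estradiol from the placebo animals.

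Estradiol in ovariectomized females was the comparison behind the choice of the genes, and its values are given without a test. Gpd2 was at -0.19, -0.36, -0.70, -0.76 and -0.92 in ovariectomized estradiol animals, against 0.46, 0.23, 0.77, 0.35 and 0.66 in ovariectomized placebo animals. G0s2 was at -0.65, 0.26, -1.84, -1.13 and -1.44 with estradiol, against 0.61, 1.22, 0.76, 0.82 and 0.93 with placebo. Krt23 was at -0.49, 0.10, -1.05, -1.17 and -0.93 with estradiol, against 0.14, 0.54, 0.68, 1.5 and 0.35 with placebo. For these 3 genes the groups did not overlap, although the highest estradiol values of G0s2 and Krt23, both of animal 34, came close to the lowest placebo values.

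Car1 was at -0.75, -1.12, -0.92, -1.70 and -1.45 in ovariectomized estradiol animals, against 0.00, 0.11, 0.56, 0.24 and -0.17 in ovariectomized placebo animals. Car3 was at -0.92, -1.28, -1.24, -1.45 and -1.28 with estradiol, against -0.10, 0.38, 0.40, 0.69 and -0.28 with placebo. Aldh1a1 was at -0.68, -0.59, -1.04, -0.99 and -1.18 with estradiol, against -0.03, 0.31, 0.17, 0.43 and -0.07 with placebo. These groups were also separate, and the values of Car3 were tight among the estradiol females, with an SD of 0.19 against 0.40 with placebo.

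The log2 difference, ovariectomized estradiol minus ovariectomized placebo, was -1.83 ± 0.37 (SE of the limma fit, n = 5 each) for G0s2, -1.46 ± 0.30 for Car3, -1.35 ± 0.25 for Krt23, -1.33 ± 0.21 for Car1, -1.08 ± 0.16 for Gpd2 and -1.06 ± 0.18 for Aldh1a1. As levels these lie between 0.282 of placebo for G0s2 and 0.48 of placebo for Aldh1a1. Ranked from the lowest difference among 23574 probes, G0s2 was 1st, Car3 was number 6, Krt23 number 9, Car1 number 10, Gpd2 number 23 and Aldh1a1 number 24. At an adjusted p under 0.05 the comparison called 0.632% of all probes, and groups did not overlap for 1.87% of all probes, against 6 of the 6 genes by their choice. Without animals 33 and 34 the differences were -2.34 for G0s2, -1.69 for Krt23, -1.55 for Car3, -1.50 for Car1, -1.29 for Gpd2 and -1.23 for Aldh1a1.

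In castrated males the same pellet went with a mixed picture. Gpd2 was at -0.15, -0.76, -0.79, -1.03 and -0.51 in castrated estradiol animals, against 0.17, 0.14, 0.18, 0.11 and 0.96 in castrated placebo animals. G0s2 was at -0.18, -2.33, -2.22, -1.29 and -1.48 with estradiol, against -0.41, -0.24, 0.34, -0.35 and -0.43 with placebo. Krt23 was at -0.64, -1.06, -1.29, -1.16 and -0.68 with estradiol, against 0.36, -0.37, 0.41, -0.82 and -0.31 with placebo. Only Gpd2 separated the groups, and 4 of the 5 estradiol values of G0s2 lay below every placebo value, the exception being animal 41.

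Car1 was at 0.33, -0.76, -0.66, -0.28 and 0.02 in castrated estradiol animals, against -0.83, -0.75, -0.32, -0.53 and 0.16 in castrated placebo animals. Car3 was at 0.53, -1.51, -1.54, -0.41 and -0.03 with estradiol, against -0.30, 0.24, -0.50, 0.25 and 0.49 with placebo. Aldh1a1 was at -0.08, -0.52, -1.10, -0.20 and 0.07 with estradiol, against -0.53, 0.03, -0.10, -0.04 and 0.30 with placebo. All 3 overlapped, and the Car3 values of animals 43 and 44, the livers with high Fabp4 and Cidea, were about 1 log2 unit or more below the other 3 estradiol males.

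The log2 difference, castrated estradiol minus castrated placebo, was -1.28 ± 0.37 for G0s2, -0.96 ± 0.16 for Gpd2, -0.82 ± 0.25 for Krt23, -0.63 ± 0.30 for Car3, -0.30 ± 0.18 for Aldh1a1 and 0.18 ± 0.21 for Car1 (SE, n = 5 each). Car1 ranked 20841 from the lowest of 23574 probes, against 11 for G0s2, 21 for Gpd2, 31 for Krt23, 73 for Car3 and 532 for Aldh1a1. The comparison called 1.18% of all probes, and groups did not overlap for 2.87%. Without animals 41 and 45 the differences were -1.79 for G0s2, -1.06 for Car3, -1.0 for Gpd2, -0.86 for Krt23, -0.45 for Aldh1a1 and -0.01 for Car1, so the sign of Car1 rested on those animals. The change with estradiol in females minus that in males was -1.52 ± 0.30 for Car1, -0.83 ± 0.43 for Car3, -0.76 ± 0.26 for Aldh1a1, -0.54 ± 0.53 for G0s2, -0.53 ± 0.35 for Krt23 and -0.12 ± 0.23 for Gpd2. It was not tested, because the females' part of it chose the genes.

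Set against animals that took no part in the choice, the ovariectomized estradiol females were still lower, which their own low values tilt. Against intact females the log2 difference was -1.64 for G0s2, -1.24 for Krt23, -1.09 for Gpd2, -0.89 for Car1, -0.75 for Car3 and -0.50 for Aldh1a1, and groups did not overlap for Gpd2, Krt23, Car1 and Car3, beside 2.13% of all probes. Against ovariectomized DHT females it was -1.74 for Car1, -1.43 for Car3 and -1.12 for Aldh1a1, with no overlap, and -0.74 for G0s2, -0.56 for Krt23 and -0.52 for Gpd2, with overlap. Here groups did not overlap for 3.51% of all probes. Since the genes were chosen for low values in these estradiol animals, nothing is read from either count.

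**Figure D2:**
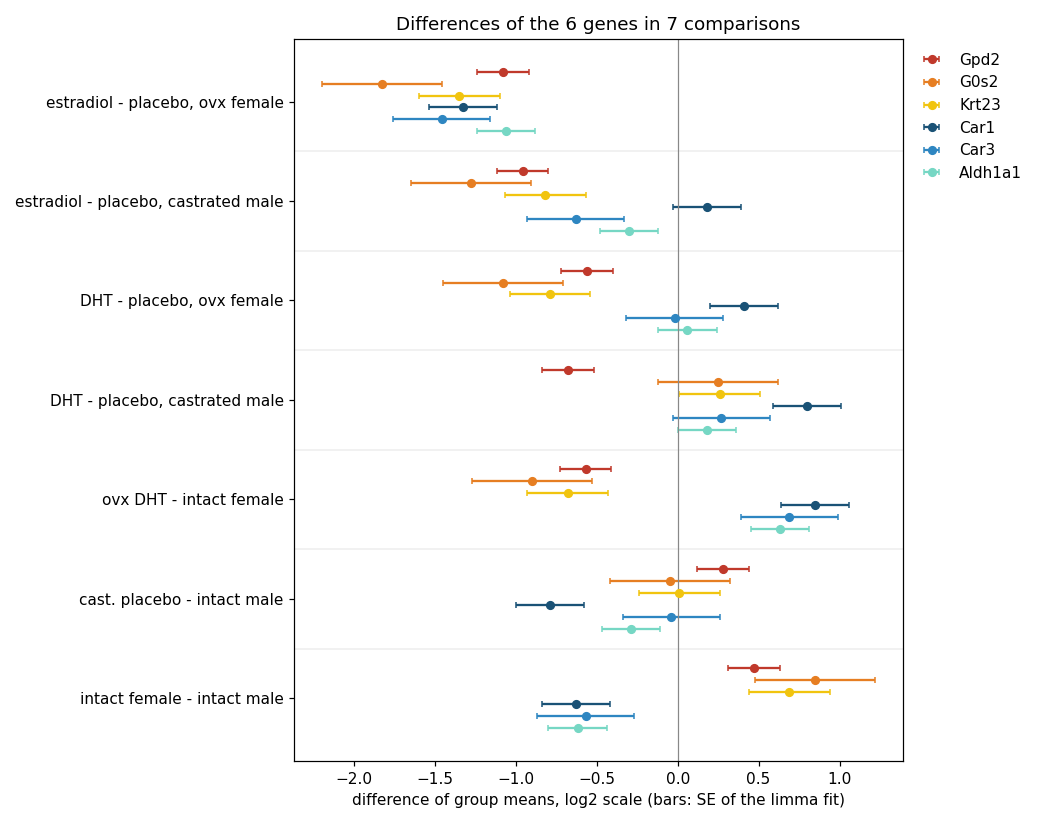
Log2 differences of group means (x axis) for the 6 genes in 7 comparisons (y axis), the first group named minus the second; points are differences and bars the SE of the limma fit. Gpd2, G0s2 and Krt23 lie on one side of 0 and Car1, Car3 and Aldh1a1 on the other in the intact sexes and between ovariectomized DHT females and intact females.

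Intact females and intact males share no animal with the comparison that chose the genes, and they ask how the 6 genes differ by sex with gonads in place. The genes fell on both sides: Gpd2, G0s2 and Krt23 had higher means in intact females, and Car1, Car3 and Aldh1a1 had higher means in intact males. Aldh1a1 passed the test, at 1 of the 6 genes called. Which of the 6 pass depended on the fit. With only the compared groups Car1 (limma adjusted p = 0.00615), Krt23 (0.0162) and Gpd2 (0.0353) passed and Aldh1a1 did not (0.053), and with array weights Gpd2 (0.0166), G0s2 (0.0186), Car1 (0.0196) and Krt23 (0.0248) passed as well as Aldh1a1. The comparison called 8.69% of all probes, and groups did not overlap for 6.74% of all probes, against 2 of the 6 genes, Krt23 and Car1.

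Aldh1a1 was at -0.46, -0.49, -0.19, -0.82 and -0.05 in intact females, against -0.22, 0.22, 0.15, 0.57 and 0.37 in intact males. It fell by 0.62 ± 0.18 on the log2 scale in females relative to males, 0.652 of the male level, with a limma adjusted p of 0.0255, and 2 female values, those of animals 3 and 5, lay above the lowest male value. The call was lost without intact female animal 2 or 4 or intact male animal 11 or 12, where the adjusted p reached 0.0998, and also after quantile normalization (0.0502) and with only the compared groups in the fit (0.053). Car1 was at -0.23, -0.25, -0.08, -0.70 and -0.21 in intact females, against 0.42, 0.48, 0.24, 0.32 and 0.22 in intact males. Every female lay below every male, and the log2 difference of -0.63 ± 0.21 had a limma adjusted p of 0.0562. Car3 was at -0.41, -0.83, -0.59, -0.30 and -0.33 in intact females, against -0.33, -0.61, 0.30, 1.04 and -0.00 in intact males. The males spread over more than the whole range of the females, with an SD of 0.22 in females and 0.64 in males, and the difference of -0.57 ± 0.30 had a limma adjusted p of 0.271.

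Krt23 was at 0.62, 0.29, 0.75, 0.72 and 0.28 in intact females, against 0.11, -0.24, -0.14, 0.04 and -0.57 in intact males. Every female lay above every male, and the log2 difference of 0.69 ± 0.25 had a limma adjusted p of 0.0805. Gpd2 was at 0.58, 0.80, 0.63, 0.15 and 0.35 in intact females, against 0.09, 0.01, 0.02, 0.17 and -0.12 in intact males. Of the female values, only that of animal 4 was below the highest male, and the difference of 0.47 ± 0.16 had a limma adjusted p of 0.0655. G0s2 was at 0.88, 0.94, 0.14, 0.35 and 1.12 in intact females, against -0.76, -0.52, 0.51, 0.69 and -0.76 in intact males. The groups overlapped in the middle of their ranges, and the difference of 0.85 ± 0.37 had a limma adjusted p of 0.169. The 95% interval of the difference left 0 out for Gpd2, G0s2, Krt23, Car1 and Aldh1a1, without adjustment for the 23574 probes.

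**Figure D3:**
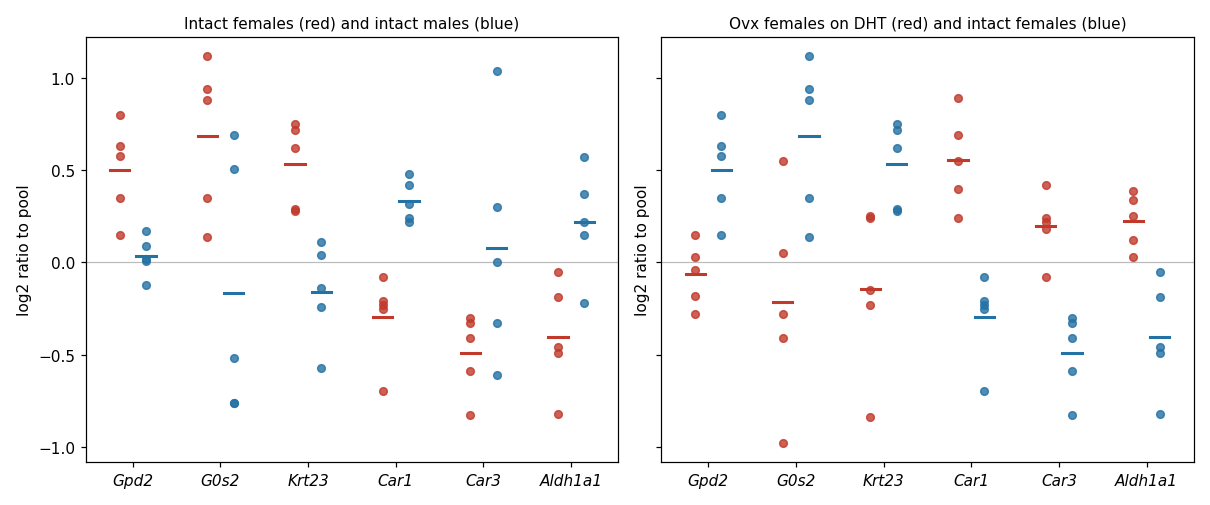
Log2 ratio to the pool (y axis) of the 6 genes (x axis) in the 5 animals of each group, with bars at the group means; left, intact females in red and intact males in blue, and right, ovariectomized DHT females in red and intact females in blue. Gpd2, G0s2 and Krt23 are higher in intact females on average in both panels, and Car1, Car3 and Aldh1a1 are lower there.

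Ovariectomized females on DHT were set against intact females, which again leaves out every animal of the comparison behind the choice. With DHT and without ovaries, the means of Gpd2, G0s2 and Krt23 were lower and those of Car1, Car3 and Aldh1a1 higher. Gpd2 fell and Car1 rose, at 2 of the 6 genes called, where 2.72% of all probes were called. Groups did not overlap for 5 of the 6 genes, all but G0s2, and for 5.4% of all probes. The intact females are also in the comparison of the sexes above, so the values of the 2 comparisons are tied through them and are given side by side only. Of 15 circadian clock genes measured, 4 rose and 2 fell here, and 0 rose and 2 fell in intact females relative to intact males. Their mean ran from -0.24 to -0.03 in intact females, -0.12 to 0.02 in intact males and -0.06 to 0.08 in ovariectomized DHT females. The part of the clock in the values of the 6 genes was not tested.

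Car1 was at 0.40, 0.24, 0.55, 0.69 and 0.89 in ovariectomized DHT females, all above the intact females, and rose by 0.85 ± 0.21 on the log2 scale (1.8-fold, limma adjusted p = 0.0175). Aldh1a1 was at 0.12, 0.34, 0.39, 0.25 and 0.03 in these DHT females, all above the intact females, and its difference of 0.63 ± 0.18 had a limma adjusted p of 0.0527, and it passed after quantile normalization (0.0296), after median centring (0.046), with array weights (0.0209) and with only the compared groups (0.0246). Car3 was at 0.24, 0.42, -0.08, 0.18 and 0.22, also all above the intact females, and its difference of 0.69 ± 0.30 had a limma adjusted p of 0.287. The fit shares 1 residual SD over all 8 groups, 0.504 for Car3, and with only the compared groups in the fit the adjusted p was 0.0086.

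Gpd2 was at -0.28, -0.18, -0.04, 0.15 and 0.03 in ovariectomized DHT females, none above the lowest intact female, and fell by 0.57 ± 0.16 on the log2 scale (0.675 of the intact level, limma adjusted p = 0.047). That call was lost when any of 8 of the 10 animals was left out, with an adjusted p of up to 0.151, and held without intact female animal 4 or DHT animal 53. It was also lost after median centring of each array (0.0588). The call of Car1 was lost without intact female animal 4 or DHT animal 54, with an adjusted p of up to 0.0718. Krt23 was at -0.84, -0.15, 0.24, 0.25 and -0.23 in these DHT females, all below the intact females, and its difference of -0.68 ± 0.25 had a limma adjusted p of 0.163. G0s2 was at 0.55, -0.28, 0.05, -0.41 and -0.98, overlapping the intact females, and its difference of -0.90 ± 0.37 had a limma adjusted p of 0.242.

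In males on DHT without testes the 6 genes were not shown to differ from intact males. Differences, castrated DHT minus intact male, ran from -0.40 ± 0.16 for Gpd2 (limma adjusted p = 0.134) to 0.27 ± 0.25 for Krt23, and 0 of the 6 genes passed where 6.32% of all probes did. Groups overlapped for all 6 genes and did not for 4.13% of all probes. Gpd2 was at -0.08, -0.45, -0.34, -0.17 and -0.80 in castrated DHT males, and 1 of these 5 values, that of animal 59, lay above the lowest intact male. Car1, at 0.53, 0.22, -0.44, 0.53 and 0.87 in castrated DHT males, differed from intact males by 0.01, with a 95% interval from -0.42 to 0.44. G0s2 was at 0.96, 0.13, 0.28, -1.04 and -0.19, Car3 at 0.83, 0.19, -0.44, 0.93 and 0.00, Krt23 at 0.45, 0.22, -0.23, 0.44 and -0.33, and Aldh1a1 at 0.03, 0.40, -0.41, 0.15 and 0.37. Castrated DHT animal 61 was the lowest of its group for 3 genes, Car1, Car3 and Aldh1a1. Between the sexes on DHT, ovariectomized minus castrated, differences ran from -0.25 to 0.30 and 0 of the 6 genes passed, where 0.0806% of all probes did. Groups overlapped for all 6, and did not for 1.97% of all probes.

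The placebo animals took part in the choice of the genes, so the comparisons with them are tilted towards high values in ovariectomized placebo females, and possibly in castrated placebo males. Car1 was lower after castration. Its values, -0.83, -0.75, -0.32, -0.53 and 0.16 in castrated placebo males, all lay below those of intact males. Groups did not overlap for 8.25% of all probes. The fall of 0.79 ± 0.21 on the log2 scale (0.579 of the intact level) had a limma adjusted p of 0.0103. It was the 1 gene of the 6 called, where 12.1% of all probes were called. The other 5 differences ran from -0.29 ± 0.18 for Aldh1a1 (limma adjusted p = 0.32) to 0.28 ± 0.16 for Gpd2 (0.278), and without placebo animal 28 that of Gpd2 was 0.11. For Car1 the call held without each of the 10 animals in turn, with an adjusted p of up to 0.0403.

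Ovariectomy called 0 of the 6 genes, where limma called 0.0339% of all probes and 1190 probes had an unadjusted p under 0.05. Car3 did not overlap between ovariectomized placebo females and intact females, as 1.11% of all probes did not, with a difference of 0.71 ± 0.30 and a limma adjusted p of 0.899. Aldh1a1 differed by 0.56 ± 0.18 (0.5), Car1 by 0.44 ± 0.21 (0.956), and G0s2, Krt23 and Gpd2 by 0.18, 0.11 and -0.01. The difference between the sexes in the effect of gonadectomy was tested itself: the change in females minus that in males was 1.23 ± 0.30 for Car1 (limma adjusted p = 0.0109) and 0.85 ± 0.26 for Aldh1a1 (0.0495), and 4.4% of all probes were called. Both differences lie in the direction that the choice of the genes on ovariectomized placebo females favours, so these p-values are no independent evidence of a difference between the sexes. For Aldh1a1 the call was also lost after quantile normalization (0.0964) and without any of 15 of the 20 animals, with an adjusted p of up to 0.119.

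Between ovariectomized and castrated placebo animals all 6 differences were above 0, from 0.18 for Gpd2 to 1.09 ± 0.37 for G0s2 (limma adjusted p = 0.635), and 0 of the 6 genes passed where 0.0679% of all probes did. G0s2 groups did not overlap, as those of 1.47% of all probes did not. With only these groups in the fit the adjusted p of G0s2 was 0.0232.

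DHT was compared with placebo in each sex. In castrated males Gpd2 fell by 0.68 ± 0.16 on the log2 scale (0.624 of placebo, limma adjusted p = 0.0133), with every DHT animal below every placebo animal, and Car1 rose by 0.80 ± 0.21 (1.74-fold, adjusted p = 0.0263), with overlap, since DHT animal 61 lay below placebo animals 26 and 28. These were 2 of the 6 genes, where 3.47% of all probes were called, and groups did not overlap for 4.06% of all probes. Without castrated placebo animal 28, the high one for Gpd2, its difference was -0.52 and the adjusted p 0.0599. The call of Car1 was lost without any of castrated placebo animals 24, 25 and 27 and castrated DHT animals 59, 62 and 63, with an adjusted p of up to 0.0916. With only the compared groups in the fit both calls were lost, at an adjusted p of 0.0949 for Gpd2 and 0.139 for Car1. Castrated placebo males may have helped choose the genes, which would favour the fall of Gpd2, so its call is no independent evidence. The fall of Car1 with castration and its rise with DHT rest on the same castrated placebo livers, so they are not separate results. The other 4 differences were 0.25 for G0s2, 0.26 for Krt23, 0.27 for Car3 and 0.18 for Aldh1a1, with adjusted p of 0.759 or more.

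In ovariectomized females DHT called 0 of the 6 genes, where 1.15% of all probes were called by limma and 2675 had an unadjusted p under 0.05. Gpd2 differed by -0.56 ± 0.16 (limma adjusted p = 0.0855), G0s2 by -1.08 ± 0.37 (0.19) and Krt23 by -0.79 ± 0.25 (0.13), and groups did not overlap for Gpd2 and G0s2, as for 4.5% of all probes. Other fits did call some of them. Gpd2 passed after quantile normalization (limma adjusted p = 0.0314), with array weights (0.0216) and with only the compared groups (0.0296), G0s2 with only the compared groups (0.0369), and Krt23 with array weights (0.0445). High placebo values helped choose the genes and push these differences below 0, so the calls are no independent evidence. Car1 differed by 0.41 ± 0.21, Aldh1a1 by 0.06 and Car3 by -0.02. The difference between the sexes in the effect of DHT was -1.33 ± 0.53 for G0s2 (limma adjusted p = 0.511) and -1.04 ± 0.35 for Krt23 (0.406). None of the 23574 probes passed this test in limma, 0% of all, while 1790 had an unadjusted p under 0.05, and with array weights 762 probes passed, among them G0s2 (-1.71, limma adjusted p = 0.0402) and Krt23 (-1.18, 0.0323), again in the direction that the choice of the genes favours.

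In the order of group means, each gene's neighbouring groups had overlapping ranges at every one of the 7 steps. The highest means were those of intact females and ovariectomized placebo females for Gpd2 (0.50 ± 0.25 and 0.49 ± 0.22, SD, n = 5), and of ovariectomized placebo and intact females for G0s2 (0.87 ± 0.23 and 0.68 ± 0.42) and for Krt23 (0.64 ± 0.52 and 0.53 ± 0.23). For Car1 they were those of ovariectomized DHT females (0.56 ± 0.25) and castrated DHT males (0.34 ± 0.50), with intact males at 0.33 ± 0.11. For Aldh1a1 they were those of ovariectomized DHT females (0.23 ± 0.15) and intact males (0.22 ± 0.29). For Car3 they were those of castrated DHT males (0.30 ± 0.58) and ovariectomized placebo females (0.22 ± 0.40).

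Genes that act beside the 6 were counted from lists. Of 18 targets of PPARA, the receptor that switches on fat oxidation in the fasted liver, 4 rose and 0 fell in intact females relative to intact males, with a list median of 0.18 beside 0.013 over all probes. They were Pdk4, which restrains pyruvate oxidation (1.69 ± 0.25, limma adjusted p = 1.13e-05), the fatty acid transporter Cd36 (1.18 ± 0.28, 0.00403), Acadl (0.36 ± 0.10, 0.011) and the hormone Fgf21 (0.34 ± 0.10, 0.0203). In ovariectomized DHT females relative to intact females 0 rose and 4 fell: Pdk4 (-2.42 ± 0.25, limma adjusted p = 2.07e-07), the peroxisomal enzyme Ehhadh (-0.82 ± 0.22, 0.027), the lipase inhibitor Angptl4 (-0.77 ± 0.16, 0.00319) and Fgf21 (-0.43 ± 0.10, 0.00685), with a list median of -0.32 beside -0.016 over all probes. With estradiol, 0 rose and 3 fell in females: the peroxisome protein Pex11a (-0.84 ± 0.19, 0.0242), Ppara itself (-0.67 ± 0.16, 0.0421) and Cpt2 (-0.56 ± 0.11, 0.0116), an enzyme of fatty acid entry into mitochondria. In castrated males 0 of the 18 passed with estradiol, with a list median of -0.24 beside -0.023 over all probes. The mean over the list in intact females ran from 0.13 to 0.49, against -0.11 to 0.01 in intact males.

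**Figure D4:**
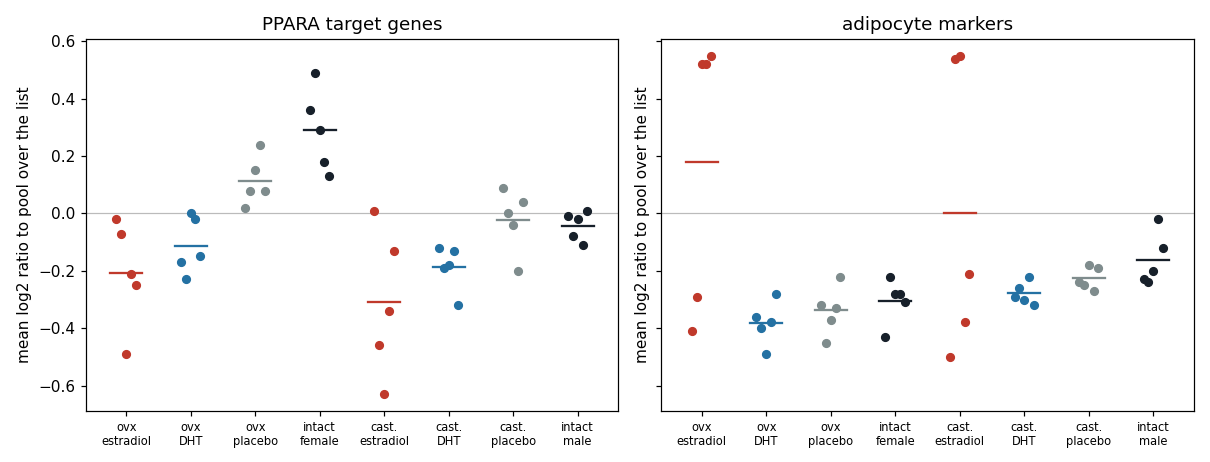
Mean log2 ratio to the pool (y axis) over 18 PPARA target genes (left) and 8 adipocyte markers (right) in each liver, by group (x axis); bars are group means, n = 5. Intact females are the highest group for the PPARA targets. For the adipocyte mean, 5 of the 10 estradiol livers stand above all others. The adipocyte list includes Fabp4 and Cidea, and its median log2 difference with estradiol was 0.01 in females and -0.04 in males.

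Of 26 genes of retinoid metabolism, 3 rose and 5 fell in intact females relative to intact males. The list median was 0.05 beside 0.013 over all probes, so the list as a whole was not lower. The genes named here are those of smallest adjusted p. Those that fell included the alcohol dehydrogenase Adh4 (-1.29 ± 0.21, limma adjusted p = 6.16e-05), the retinoic acid hydroxylase Cyp26b1 (-0.97 ± 0.12, 4.7e-07) and Aldh1a7 (-0.76 ± 0.19, 0.00648), a close paralog of Aldh1a1. Rarg fell by less (-0.19 ± 0.04, 0.00216). In ovariectomized DHT females relative to intact females 3 rose and 0 fell: Adh4 by 1.45 (limma adjusted p = 5.98e-05), Aldh1a7 by 0.90 (0.0036) and Cyp26b1 by 0.51 (0.0118). The list median there was -0.05 beside -0.016 over all probes. With estradiol in females Aldh1a7 differed by -0.35 ± 0.19 (0.53), beside the description of -1.06 for Aldh1a1. How far the probes of Aldh1a1 and Aldh1a7 separate the paralogs was not tested.

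Of the other carbonic anhydrases, 10 of 14 were measured. With estradiol 0 of the 10 passed in limma in either sex. Car10 fell in intact females relative to intact males (-0.35 ± 0.09, limma adjusted p = 0.0093) and with castration (-0.46 ± 0.09, 0.00056), and it was the 1 gene of the 10 that passed in each. Car5a was higher in castrated DHT males than in intact males (0.67 ± 0.20, 0.0338). Because Car1 is abundant in red cells, erythroid markers (10 of 15 measured) are given beside it. Their mean ran from -0.22 to -0.08 in intact females, against -0.06 to 0.27 in intact males, and with castration from -0.25 to -0.01 in castrated placebo males. This mean includes Alas2. The list median was -0.12 between the intact sexes and -0.26 with castration, beside 0.013 and 0.025 over all probes. Of the 10, Alas2, the heme synthesis enzyme of red cell precursors, fell in intact females relative to intact males (-1.66 ± 0.24, limma adjusted p = 5.37e-06) and with castration (-1.41 ± 0.24, 6.65e-05). Alas2 was the 1 gene of the 10 called between the intact sexes, and the 1 called with DHT in each sex. With DHT it rose in castrated males (1.29 ± 0.24, 0.00123) and in ovariectomized females (0.95 ± 0.24, 0.0342), where Car1 was not called (0.471). Alas2 also rose between ovariectomized DHT and intact females (1.14 ± 0.24, 0.0036). Klf1, an erythroid transcription factor, went the other way. It rose with castration (0.73 ± 0.15, 0.000785) and differed by 0.34 ± 0.15 between the intact sexes (0.167). With estradiol 0 of the 10 erythroid markers passed in limma in either sex, and their mean ran from -0.27 to 0.35 in ovariectomized estradiol females, against -0.28 to -0.05 in ovariectomized placebo females. The part of these markers in the values of Car1 was not tested.

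Of 12 genes of the glycerol phosphate and other NADH shuttles, 2 rose in intact females relative to intact males and with castration, the mitochondrial malate dehydrogenase Mdh2 (0.67 ± 0.14 and 0.98 ± 0.14) and the glycerol channel Aqp7 (0.29 ± 0.06 and 0.27 ± 0.06), with limma adjusted p of 0.00378 or less. Mdh2 fell with DHT in castrated males (-0.59 ± 0.14, 0.0163) and in ovariectomized females (-0.58 ± 0.14, 0.0328). Gpd1, the cytosolic partner of Gpd2 in the shuttle, passed in none of the comparisons, at -0.21 ± 0.11 with estradiol in females (0.51) and 0.02 ± 0.11 between the intact sexes (0.93). For G0s2, Abhd5, the coactivator of the lipase that G0s2 inhibits, differed by at most 0.28 in size in any comparison and passed in none. Of 10 lipid droplet genes, Fitm1 fell in intact females relative to intact males (-1.40 ± 0.29, 0.00116) and rose in ovariectomized DHT females relative to intact females (1.02 ± 0.29, 0.0463), and Hilpda fell in the second comparison (-0.62 ± 0.10, 0.000105). Pnpla3, of the same list, rose with castration (0.37 ± 0.07, 0.000728) and fell with DHT in castrated males (-0.35 ± 0.07, 0.00549).

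Of 13 other keratins, 1 rose with estradiol in ovariectomized females, Krt4 (1.06 ± 0.27, limma adjusted p = 0.0492), and 1 rose with DHT in castrated males, Krt8 (0.62 ± 0.13, 0.00416), the main type II keratin of hepatocytes. Between the intact sexes 0 of the 13 passed in limma. Of 6 cholangiocyte markers measured, bile duct cells being rich in keratins, 0 passed in those comparisons, and their mean ran from -0.03 to 0.13 in ovariectomized estradiol females, against -0.07 to 0.34 in ovariectomized placebo females. The estrogen receptor Esr1 differed by at most 0.18 in size in any comparison and passed in none, with a difference of 0.02 ± 0.12 with estradiol in females and -0.07 ± 0.12 in males.

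The genes whose values were most like each of the 6 were found by Pearson's r over the 40 livers, which share the pool and the group differences, so r is a description. For Gpd2 they were Pex11a (0.83), Pank1 (0.83) and Cbfa2t3 (0.82). For G0s2 they were Inhbe (0.85), Trim7 (0.77) and Crat (0.77), and for Krt23 Lamb3 (0.85), Afg1l (0.80) and Cpt2 (0.78). Car1 and Car3 each had Aldh1a1 among their 3, at 0.82 for both, with Aspa (0.81) and Abcd3 (0.80) for Car1 and Mapkapk5 (0.83) and Ces1e (0.81) for Car3. Aldh1a1 itself was most like Klra5 (0.90), Nat8f1 (0.85) and Car3 (0.82). Lamb3, a laminin chain, had a log2 difference of -1.72 with estradiol in females and -1.23 in males.

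Whether the 6 genes vary together from animal to animal inside a group was tested on deviations from the group means, over 15 pairs of genes, with 100000 permutations of animals within groups. The 30 livers without estradiol are the ones used for this, since the estradiol livers differed widely from each other in Fabp4 and Cidea. Over these 30 animals 0 of the 15 pairs passed after Benjamini-Hochberg adjustment, by Pearson's r or by Spearman's rho. The closest was Car1 with Aldh1a1, at an r of 0.53 (permutation p = 0.0102, adjusted 0.153) and a rho of 0.40 (p = 0.0471, adjusted 0.236), with an r of 0.33 without the 2 animals farthest from the median of Car1. Car3 with Aldh1a1 had an r of 0.49 (permutation p = 0.021, adjusted 0.157) and a rho of 0.45 (p = 0.0288, adjusted 0.236), with an r of 0.32 without the 2 animals farthest from the median of Car3. Car1 with Car3 had an r of 0.27 (permutation p = 0.224, adjusted 0.752). Among Gpd2, G0s2 and Krt23 the r of the 3 pairs was -0.04, 0.17 and -0.02. With the 10 estradiol livers added, which brings the number of animals to 40, 4 of the 15 pairs passed by r: Car3 with Aldh1a1 (0.60), Car1 with Aldh1a1 (0.58), Gpd2 with Car1 (0.51, beside 0.39 over the 30) and Car1 with Car3 (0.50). By rho 4 pairs passed, with Gpd2 and Krt23 in place of Car1 and Car3. The parts of the larger number of animals and of the differences among the estradiol livers in these calls were not tested.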

How the data were processed

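Liver RNA (Cy5, per the labels) was hybridised with a common pool (Cy3) on 2-colour arrays, 1 array per animal, without dye swaps. The authors deposited log10 ratios for 23574 probes on 40 arrays, with 0 missing values and 29 values on 16 probes at the limits of 2 or -2, none of them among the 240 values of the 6 genes. Background correction and normalization are not given in the sources used here. The scale and direction were read from those limits and from Y-linked genes. Deposited log10 values were multiplied by 3.3219 to give log2 ratios. Array medians ran from -0.0448 to 0.0363 and interquartile ranges from 0.129 to 0.34 (log2). No scanner files were used, so signal over background is unknown. Precision is limited by the number of arrays.

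The 40 arrays were fitted with limma 3.58.1 in R 4.3.3 (lmFit and eBayes, 8 group means, 32 residual and 3.42 prior degrees of freedom). Each p is two-sided, with Benjamini-Hochberg adjustment over all probes and a threshold of 0.05, and 11 contrasts were tested. The code was tested on simulated data. Of the probes, 13665 had 1 symbol, 48 several and 9861 were not listed. With the RefSeq identifiers of GRCm38.p6, 12662 probes of 10842 genes were named, and the probe of largest SD stood for a gene with several.

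The 6 genes and the lists were chosen with earlier results of these data known. Other genes named are up to 4 of smallest adjusted p in a list described, the 3 most like each of the 6, and partner genes (Gpd1, Abhd5, Aldh1a7, Krt8, Esr1). Fabp4 and Cidea per animal and Lamb3's differences were singled out after their values were seen. Array weights, quantile normalization, median centring, a robust prior, only the compared groups, and each animal left out were tried. No batch, slide or date is in the labels, so none was tested.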

Additional observations from a re-analysis of the deposited data

Results flagged for a closer look

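Of 48 sets of 5 animals (6 genes in 8 groups), 3 held an animal far from the others by Dixon's test, which chance does in about 1 in 20 sets. Gpd2 was 0.96 in castrated placebo animal 28, against 0.18 in the next highest animal of its group. G0s2 was 0.34 in castrated placebo animal 26, against -0.24 in the next. Car1 was -0.70 in intact female animal 4, against -0.25 in the next lowest. The change with gonadectomy differed between females and males for Car1, by 1.23 on the log2 scale (limma adjusted p = 0.0109), and for Aldh1a1, by 0.85 (limma adjusted p = 0.0495). Both lie in the direction favoured by the choice of the genes, which used the ovariectomized placebo females, and are no independent evidence of a difference between the sexes.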

How the results depend on the processing

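Over 1110 alternative values of the tested differences of the 6 genes, 1006 kept direction and side of the threshold, 42 fell short of it, 22 passed it and 40 changed sign, none of them with a call. Of the 40, 34 came with 1 animal left out, with values from -0.10 to 0.06 (Gpd2) and -0.10 to 0.24 (Krt23) for ovariectomy, -0.20 to 0.16 (G0s2), -0.22 to 0.20 (Car3) and -0.13 to 0.18 (Krt23) for castration, -0.04 to 0.46 (G0s2), -0.12 to 0.20 (Car1) and -0.22 to 0.02 (Aldh1a1) for DHT males against intact males, -0.15 to 0.10 (Car3) for DHT in females, -0.29 to 0.05 (Car3) and -0.01 to 0.19 (Aldh1a1) between sexes on DHT, and -0.12 to 0.24 (Krt23) and -0.04 to 0.19 (Gpd2) for the interactions with gonadectomy and DHT. The others were 0.03 for Gpd2 with ovariectomy and -0.03 for Krt23 with castration after quantile normalization, and with array weights 0.09 for G0s2 and 0.00 for Car3 with castration, and -0.01 for G0s2 and -0.07 for Gpd2 in the interactions with gonadectomy and DHT. Of 192 estradiol differences 191 kept their sign, and Car1 in castrated males was -0.01 without animals 41 and 45, an alternative chosen after seeing the data. Counts of probes called moved more. With array weights they were 5443 between the intact sexes, against 2048 as reported, 31 for ovariectomy (8), 7762 for castration (2856), 39 between placebo sexes (16), 1298 and 3801 for DHT in females and males (271 and 819), 1779 and 6220 for DHT females and males against intact ones (642 and 1491), 1310 between sexes on DHT (19), 3007 and 762 for the interactions with gonadectomy and DHT (1038 and 0), and 1092 and 753 for estradiol in females and males (149 and 278). With only the compared groups in the fit they were 1249 between the intact sexes, 1 for ovariectomy, 1763 for castration, 31 between placebo sexes, 545 and 260 for DHT in females and males, 241 for DHT males against intact males, and 55 and 37 for estradiol in females and males. After quantile normalization they were 16 for ovariectomy, 1802 for castration, 757 for DHT in females, 1232 and 372 for DHT females and males against intact ones, and 530 for the interaction with gonadectomy. Without animals 33 and 34 estradiol in females called 1608. The correlations between genes without the estradiol groups, also chosen after seeing the data, are given in the text above. The cause was not tested. With each animal left out in turn, counts ran from 1455 to 2604 between the intact sexes, 2 to 23 for ovariectomy, 1976 to 3687 for castration, 13 to 23 between placebo sexes, 89 to 443 and 335 to 1115 for DHT in females and males, 410 to 713 and 762 to 2870 for DHT females and males against intact ones, 15 to 24 between sexes on DHT, 778 to 1243 and 0 to 7 for the interactions, and 22 to 902 and 69 to 322 for estradiol in females and males. Each of the 6 genes has 1 probe, so a mean over probes could change nothing. No paired analysis was possible because each animal number occurs in 1 group only. Signal over background is unknown, so 5 arrays a group set what could be detected.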
